A study of Homo sapiens with 12 samples.

Results

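MDA-MB-231 breast cancer cells that carry green fluorescent protein were cultured either alone or in the same perfused device as a hepatic tissue, and the RNA of the cancer tissue was compared between these conditions. The comparison was defined by the sample labels. It set 4 libraries from the hepatic co-culture against 4 from the monoculture, 8 of the 12 libraries of the study. MDA-MB-231 is an established human line of triple-negative breast cancer with a mesenchymal character. In all groups the cancer cells were embedded in fibrin gel, cultured under flow in the AngioPlate system, a well plate with perfusable channels, and harvested 5 days after seeding. The hepatic tissue was a fibrin gel of HepG2 cells, a liver cancer line used as a hepatocyte model, with 2% lung fibroblasts. The remaining group of 4 libraries was a co-culture with a cardiac gel of iPSC-derived cardiomyocytes (from reprogrammed stem cells) and 2% heart fibroblasts. It served to place the hepatic values. It also entered the fit of all 12 libraries, so it had a part in the p-values against monoculture. Only the cancer tissue was sequenced, as polyadenylated RNA. The labels call the 4 libraries of a group biological replicates without saying whether separate cultures were used, so p-values reflect how much these libraries varied, which may be technical.

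Tumour cells exchange signals with neighbouring tissue through secreted ligands and the receptors that bind them. Signals received at the membrane end in transcription factors, which set the levels of their target genes, and transporters and channels set which ions, nutrients and metabolites cross the membrane. The description below therefore follows these 4 classes in that order, from ligand to receptor to transcription factor to transporter.

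Total counts per library ranged from 35.0 to 42.0 M (M, 1e6 counts) in the monoculture, and those of the hepatic libraries from 26.2 to 42.4 M. The first principal component of the 8 libraries held 39.8% of the variance and kept the groups apart, with monoculture at -50.6 to -22.6 and hepatic libraries at 26.5 to 48.0. The label of the cell line was checked against its markers: VIM (vimentin) had 23651 to 40818 counts in the 8 libraries, ESR1 at most 8, PGR at most 4 and CDH1 (E-cadherin) at most 21, and CDKN2A was at 0 counts in all 8. NKX2-1, a transcription factor best known from lung and thyroid, was also present, with 913 to 1743 counts, and FOXA2 had 2376 to 4259. Apart from CDH1, the epithelial markers examined were not near 0. KRT8 had 12374 to 30195 counts, KRT19 10504 to 19884, KRT18 3380 to 7840, CLDN4 3525 to 7653 and EPCAM 173 to 368. RNA of the partner tissue was looked for with 23 hepatocyte and 16 fibroblast markers. The summed hepatocyte markers were at 65.7 to 103.8 counts per 1e6 counts of the library (CPM) in the monoculture and at 47.0 to 73.0 CPM in the hepatic co-culture, and 2 of the 5 tested markers were called higher and 1 lower. Most of this sum was SERPINA1 and HP, which already had 1479 to 3208 and 674 to 1420 counts in the monoculture. HP was the marker called lower, while CYP2E1 and ASGR1 were higher, with log2 fold changes of 0.651 and 0.749. The sum thus mainly follows genes present without a hepatic tissue, so it cannot show whether hepatic RNA was carried over. ALB (albumin) had at most 14 counts in monoculture and at most 6 in hepatic libraries, and APOA2, APOB, FABP1 and RBP4 were at 0 in all 8. Other markers too low to be tested went either way. AFP, TF and HNF4A had at most 11, 8 and 6 counts in monoculture and at most 14, 12 and 13 in hepatic libraries. AMBP had at most 14 and 7. Summed fibroblast markers were at 18.1 to 24.2 and 15.3 to 25.6 CPM, with 2 of 8 tested markers higher, 2 lower, and POSTN, THY1, DPT and PDPN at 0 in all 8. The higher markers were the collagens COL1A2 (25 to 77 counts in monoculture, 53 to 276 in hepatic libraries) and COL3A1 (0 to 12 and 10 to 44). Their log2 fold changes were 1.55 and 2.84. The lower markers were DCN and FBLN1, with log2 fold changes of -3.10 and -2.82. Summed endothelial markers were at 97.6 to 110.3 CPM in monoculture and 133.3 to 143.9 CPM in the hepatic co-culture, with 4 of 7 tested markers higher and 1 lower, while ERG was at 0 in all 8. TIE1 had 3 to 19 counts in monoculture and 79 to 116 in hepatic libraries, and VWF 19 to 31 and 50 to 127. EGFL7 and ESAM were higher with log2 fold changes of 0.48 and 0.32, and KDR was lower with -1.34. The part of these markers in the results below was not tested, and in bulk RNA fewer cells of a type and less RNA per cell cannot be told apart.

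Of 17468 genes tested with edgeR's quasi-likelihood test, 4892 (28.0%) passed a Benjamini-Hochberg adjusted p of 0.05, 2518 (14.4%) higher and 2374 (13.6%) lower in the hepatic co-culture. At least 2-fold differences were fewer, with 554 genes (3.17%) higher and 245 (1.40%) lower. Called genes whose 4 libraries did not overlap between the groups numbered 4251 (24.3%). Among protein-coding genes, 32.4% of 13709 were called. Secreted factors and ligands had 57 of 214 tested members higher and 23 lower, with a median log2 fold change of 0.21 beside 0.015 over all tested genes. Receptors had 52 of 289 higher and 49 lower, transcription factors 140 of 867 higher and 95 lower, and transporters and channels 90 of 500 higher and 87 lower. The share called in either direction was 37.4% of secreted factors, 34.9% of receptors, 27.1% of transcription factors and 35.4% of transporters and channels, beside the 32.4% of protein-coding genes. The share of transcription factors joined 18.2% of 445 numbered zinc finger (ZNF) proteins and 36.5% of the 422 others. The table held 411, 503, 1143 and 810 members of these classes, so the counts cover the expressed members only.

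Among secreted factors, the bone morphogenetic protein (BMP) BMP5 and the BMP antagonist CHRD (chordin) rose, while INHBB, the subunit of activin B, fell, and ANGPTL4, a secreted blocker of lipoprotein lipase, also fell. BMP5 (gene span chr6:55753645-55875564 on GRCh38) was at 0.44, 0.79, 0 and 0.39 CPM in the monoculture and at 5.86, 6.12, 6.20 and 4.71 CPM in the hepatic co-culture. Its level was low in all monoculture libraries, 1 of them without a count, and its log2 fold change was 3.83 ± 0.66 (standard error, adjusted p = 0.00161). CHRD (chr3:184380073-184390736) was at 3.40, 6.87, 2.17 and 2.55 CPM against 28.2, 16.9, 22.1 and 12.5 CPM. The hepatic values of CHRD spread widely, and its log2 fold change was 2.41 ± 0.54 (adjusted p = 0.00878). Named genes had to have groups without overlap, so for BMP5, CHRD and the other named genes below this is not a separate result. SCG2, the granin precursor of secretoneurin (chr2:223596940-223602503), was at 5.15, 11.2, 5.49 and 6.94 CPM in monoculture. Its hepatic libraries were at 43.8, 18.5, 44.7 and 21.0 CPM, a pair high and a pair nearer the monoculture, and the log2 fold change was 2.15 ± 0.52 (adjusted p = 0.0136).

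FGG, the fibrinogen gamma chain made chiefly by hepatocytes (chr4:154604134-154612967), was at 0.61, 1.48, 0.30 and 1.17 CPM in monoculture and at 5.54, 7.04, 5.99 and 1.68 CPM in the hepatic co-culture, with hepatic replicate 4 close to the highest monoculture library. Its log2 fold change was 2.52 ± 0.52 (adjusted p = 0.00403). In the cardiac co-culture, which held no hepatic tissue, FGG was at 4.47, 4.80, 3.30 and 1.79 CPM, above every monoculture library. The hepatic minus cardiac log2 fold change of 0.51 ± 0.48 was not called (adjusted p = 0.606). The genes of the other fibrinogen chains were too low to be tested, with at most 11 counts of FGA and at most 10 of FGB in any of the 8 libraries.

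INHBB (chr2:120346143-120351808) was at 30.1, 30.0, 37.8 and 31.7 CPM in monoculture and at 8.40, 13.0, 10.2 and 11.9 CPM in the hepatic co-culture. INHBB fell by 1.57 ± 0.15 on the log2 scale (adjusted p = 9.7e-07). ANGPTL4 (chr19:8363289-8374373) was at 136, 184, 161 and 154 CPM against 41.3, 38.9, 22.2 and 35.1 CPM. It fell by 2.21 ± 0.18 on the log2 scale (adjusted p = 1.21e-05). The membrane-bound chemokine CX3CL1 (fractalkine) was at 3.79 to 6.36 CPM in monoculture and at 1.04 to 1.85 CPM in the hepatic co-culture, a log2 fold change of -2.04 ± 0.34 (adjusted p = 0.00041). HP, haptoglobin, which binds free haemoglobin, went from 18.7 to 39.4 CPM down to 3.81 to 11.3 CPM, a log2 fold change of -1.97 ± 0.36 (adjusted p = 0.00307). HP has a near-identical copy, HPR, so the split of reads between them is uncertain.

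The families of secreted factors did not move alike. Each family count here and below stands beside 14.4% higher and 13.6% lower of all tested genes. Families hold protein-coding genes only, and 32.4% of those were called in either direction, beside 28.0% of all tested genes. Of 31 tested semaphorins, netrins, slits and ephrins, the guidance cues of axons and vessels, 14 were higher and 2 lower. SEMA3B was at 44.9, 47.9, 33.0 and 35.6 CPM in monoculture and 82.4, 73.2, 78.1 and 80.7 CPM in the hepatic co-culture (log2 fold change 0.96 ± 0.11, adjusted p = 7.59e-06). EFNB2 (ephrin-B2), which signals through EPHB4, went the other way, from 152, 134, 119 and 124 CPM to 57.9, 62.8, 61.3 and 63.9 CPM. The libraries of each group lay close together for EFNB2, and it fell by 1.11 ± 0.07 (adjusted p = 1.4e-08).

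Of 18 tested insulin-like, hepatocyte growth factor-like and neurotrophic factors, 8 were higher and 0 lower in edgeR's test, and 0 were lower either at an unadjusted p under 0.05 or in DESeq2. The count of 8 became 5 without monoculture replicate 1 or without monoculture replicate 4. MDK (midkine), a heparin-binding growth factor, was at 18.5, 20.4, 17.4 and 17.2 CPM in monoculture and at 55.7, 45.4, 54.4 and 50.8 CPM in the hepatic co-culture. Its log2 fold change was 1.49 ± 0.09 (adjusted p = 4.71e-09). Peptide hormones had 7 of 19 higher and 2 lower. Among the latter, EDN2 (endothelin 2) had 77, 112, 138 and 123 counts in monoculture but 2, 6, 6 and 5 counts in the hepatic co-culture (log2 fold change -4.23 ± 0.39, adjusted p = 7.88e-07). Ligands of the transforming growth factor beta (TGF-beta) family were split evenly, with 4 of 20 higher and 4 lower. GDF15 was among the former, at 4.18 to 7.94 CPM against 14.6 to 17.3 CPM, and BMP4 among the latter, at 91.5 to 162 CPM against 57.5 to 80.1 CPM. Chemokines had 3 of 15 lower and 0 higher in edgeR's test, but 3 were higher at an unadjusted p under 0.05 and 2 in DESeq2.

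**Figure D1:**
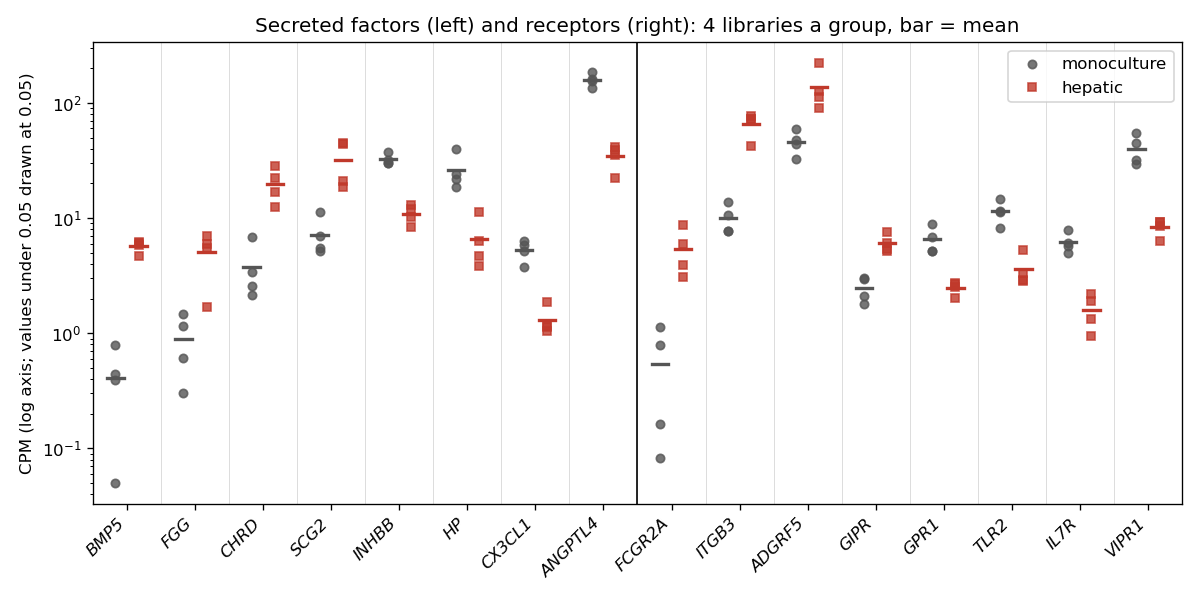
CPM on a log axis (y) of the named secreted factors (left of the line) and receptors (right) in the 4 monoculture libraries (grey circles) and the 4 hepatic co-culture libraries (red squares), with bars at the group means. The groups do not overlap for any of these 16 genes, which the rule for named genes required, and the hepatic libraries of ANGPTL4 sit at 22.2 to 41.3 CPM below 136 to 184 CPM.

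Among receptors, the integrin subunit ITGB3 and the adhesion G protein-coupled receptor ADGRF5 rose, and the receptors IL7R, TLR2 and VIPR1 fell. ITGB3 (chr17:47253846-47311816), which pairs with the alpha V subunit to bind vitronectin and fibrin(ogen), was at 7.72, 10.6, 7.78 and 13.7 CPM in monoculture. In the hepatic co-culture it was at 72.4, 73.2, 76.3 and 42.2 CPM. The log2 fold change was 2.73 ± 0.30 (adjusted p = 0.000166). Of the 19 tested integrin subunits, 5 were higher and 3 lower, the latter count becoming 1 without monoculture replicate 3 or without hepatic replicate 3. ITGA3, which forms a laminin receptor, was called higher with a log2 fold change of 0.42 ± 0.08, and ITGA2, of the collagen receptor, lower with -0.28 ± 0.06.

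ADGRF5 (chr6:46852512-46954943) was at 32.4, 48.1, 43.8 and 59.9 CPM in monoculture and at 90.0, 221, 126 and 113 CPM in the hepatic co-culture. Hepatic replicate 2 was highest, and the log2 fold change was 1.58 ± 0.28 (adjusted p = 0.00288). GIPR, the receptor of glucose-dependent insulinotropic polypeptide, was low throughout, at 1.78 to 3.04 CPM against 5.17 to 7.54 CPM (log2 fold change 1.29 ± 0.23, adjusted p = 0.000582). FCGR2A, a receptor for the Fc part of immunoglobulin G, was at 0.08, 0.79, 0.16 and 1.14 CPM in monoculture and 3.95, 8.76, 5.93 and 3.10 CPM in the hepatic co-culture. Its log2 fold change was 3.33 ± 0.73 (adjusted p = 0.00645) and became 3.96 without monoculture replicate 4. Reads of FCGR2A may be shared with its near-identical paralogs, so its value is uncertain.

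VIPR1, the receptor of vasoactive intestinal peptide (chr3:42489299-42537573), was at 31.7, 29.2, 54.4 and 45.3 CPM in monoculture and at 8.57, 9.24, 6.34 and 9.18 CPM in the hepatic co-culture. The hepatic libraries clustered well below the widely spread monoculture libraries, and VIPR1 fell by 2.27 ± 0.28 (adjusted p = 0.000215). IL7R, the alpha chain of the interleukin 7 receptor (chr5:35852695-35879603), was at 4.98, 6.07, 5.72 and 7.83 CPM against 0.95, 1.89, 1.34 and 2.18 CPM (log2 fold change -1.95 ± 0.23, adjusted p = 1.17e-05). TLR2, a sensor of bacterial lipoproteins (chr4:153684070-153705702), was at 8.16, 11.5, 14.7 and 11.3 CPM against 5.33, 2.83, 2.88 and 3.33 CPM (log2 fold change -1.68 ± 0.20, adjusted p = 1.6e-05). GPR1, a receptor of the adipokine chemerin, was at 5.18 to 8.91 CPM against 2.02 to 2.75 CPM, a log2 fold change of -1.39 ± 0.22 (adjusted p = 0.000202). As the rule for named genes required, no hepatic library reached the monoculture range for any of these 4 receptors.

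Receptor tyrosine kinases had 4 of 42 tested members higher and 9 lower (9.52% and 21.4%, beside 14.4% and 13.6% of all tested genes). DDR1, a collagen receptor, was at 75.0 to 77.9 CPM against 115 to 176 CPM (log2 fold change 0.86 ± 0.10, adjusted p = 2.3e-05). ROS1, an orphan receptor kinase, was at 3.02, 3.88, 3.32 and 4.58 CPM in monoculture and at 0.32, 0.52, 0.31 and 0.34 CPM in the hepatic co-culture (log2 fold change -3.27 ± 0.37, adjusted p = 7.59e-06). Receptors for lipids, nucleotides and proteases had 6 of 21 lower and 1 higher. Cytokine receptors had 6 of 36 higher and 7 lower (16.7% and 19.4%), not far from the share of all tested genes. The lower members include IL1RN (log2 fold change -2.11), which is not a receptor but the secreted antagonist of the interleukin 1 receptor. The counts of this family and of the receptor class therefore hold a gene that does not belong there. EPOR, the erythropoietin receptor, was higher by 0.79 ± 0.12 on the log2 scale and IL6R, the interleukin 6 receptor, had a log2 fold change of -0.81 ± 0.10. The receptors of semaphorins, netrins and slits had 7 of 18 higher and 4 lower, and the netrin receptor UNC5B was at 2.71 to 4.94 CPM against 0.48 to 1.53 CPM (log2 fold change -2.11 ± 0.31, adjusted p = 0.000105).

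A list of 108 known ligand and receptor pairs was used to set the ligands beside their receptors within the cancer tissue. Both partners were tested in 77 pairs, and in 28 of these neither was called by edgeR (27 by DESeq2). Both were higher in 6 pairs and both lower in 5, while a higher ligand met a lower receptor in 6 pairs and the reverse occurred in 1. Counted singly, 14 of 46 tested ligands were higher and 8 lower, and 13 of 66 tested receptors were higher and 12 lower. Many genes are in several pairs, so the pairs are not separate members. Whether partners moved together was not tested. These counts rested on single libraries: with 1 library left out they ranged from 2 to 6, 0 to 5, 1 to 8 and 0 to 1. At least 1 of them moved by over 1.5 times without any 1 of the monoculture libraries or without hepatic replicate 1, 3 or 4, and without monoculture replicate 3 they were 2, 0, 1 and 0. With upper-quartile scaling both were lower in 2 pairs. The ligand TNFSF10 (TRAIL), which can trigger apoptosis, was at 17.0 to 24.2 CPM against 38.3 to 59.0 CPM (log2 fold change 1.14 ± 0.17, adjusted p = 0.000488). Its decoy receptor TNFRSF10D, which lacks a working death domain, rose by 0.85 ± 0.14 (adjusted p = 0.00107), while the death receptors TNFRSF10A and TNFRSF10B had log2 fold changes of -0.20 and 0.04 and were not called by edgeR. TNFRSF10A was called lower by DESeq2 (adjusted p = 0.0384), beside an adjusted p of 0.0545 in edgeR's test. For interleukin 1, the ligand IL1B was at 1.94 to 3.55 CPM against 5.72 to 8.42 CPM (log2 fold change 1.31 ± 0.24, adjusted p = 0.000634). Its signalling receptor IL1R1 went from 23.1 to 31.3 CPM down to 14.0 to 19.2 CPM (log2 fold change -0.68 ± 0.11, adjusted p = 0.000296). AREG (amphiregulin), a ligand of the epidermal growth factor receptor, was at 97.7 to 104 CPM against 50.8 to 71.4 CPM (log2 fold change -0.78 ± 0.10, adjusted p = 2.41e-05). EPHB4, the receptor of the falling EFNB2, was not called, with a log2 fold change of 0.10.

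Among transcription factors, TP63 of the p53 family, the nuclear receptor NR4A2 and the helix-loop-helix inhibitor ID4 rose, and ATOH8, TFCP2L1, SNAI2 and EHF fell. TP63 (chr3:189631416-189897279) was at 1.80, 2.37, 1.20 and 2.44 CPM in monoculture and at 10.6, 12.0, 9.52 and 12.0 CPM in the hepatic co-culture. The log2 fold change of TP63 was 2.50 ± 0.21 (adjusted p = 3.41e-07). ID4 (chr6:19837386-19840684), which binds helix-loop-helix factors and keeps them from DNA, was at 4.23, 4.70, 5.84 and 4.41 CPM against 17.6, 21.4, 16.1 and 12.5 CPM (log2 fold change 1.82 ± 0.24, adjusted p = 7.17e-05). NR4A2 (chr2:156324432-156342348), an orphan nuclear receptor induced early after many stimuli, was at 4.68, 5.41, 3.28 and 5.61 CPM against 21.7, 13.0, 19.1 and 11.2 CPM (log2 fold change 1.78 ± 0.23, adjusted p = 6.45e-05).

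ATOH8, a basic helix-loop-helix factor (chr2:85751344-85788066), was at 35.4, 33.7, 68.7 and 55.0 CPM in monoculture and at 5.05, 5.17, 5.89 and 5.17 CPM in the hepatic co-culture. The hepatic libraries were nearly equal and far below the monoculture, and ATOH8 fell by 3.18 ± 0.25 (adjusted p = 8.59e-06). TFCP2L1, of the grainyhead-like family (chr2:121216587-121285207), was at 10.8, 10.6, 12.8 and 8.72 CPM against 3.63, 3.21, 2.77 and 2.72 CPM (log2 fold change -1.79 ± 0.16, adjusted p = 5.97e-07). SNAI2 (Slug), a repressor of E-cadherin known from epithelial-mesenchymal transition, was at 27.4, 31.9, 34.7 and 27.2 CPM against 15.5, 9.73, 10.3 and 13.0 CPM. It fell by 1.32 ± 0.13 (adjusted p = 2.25e-06), and CDH1 itself had 7, 13, 3 and 21 counts in monoculture and 2, 0, 4 and 2 in the hepatic co-culture (log2 fold change -2.08, adjusted p = 0.0641). The epithelial ETS factor EHF was at 16.7 to 25.6 CPM against 8.15 to 12.5 CPM (log2 fold change -1.11 ± 0.15, adjusted p = 3.3e-05).

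SOX and TCF/LEF factors, which include regulators of stem cells and the end points of WNT signalling, had 8 of 19 tested members higher and 0 lower in edgeR's test, and 0 were lower at an unadjusted p under 0.05 or in DESeq2. SOX9 was at 110, 118, 86.9 and 106 CPM in monoculture and at 242, 163, 181 and 172 CPM in the hepatic co-culture (log2 fold change 0.85 ± 0.12, adjusted p = 0.000118). Forkhead factors had 7 of 24 higher and 0 lower, with 3 lower at an unadjusted p under 0.05 and 2 lower in DESeq2. FOXA2, a pioneer factor of endoderm, was at 65.8 to 69.3 CPM against 98.7 to 124 CPM (log2 fold change 0.69 ± 0.08, adjusted p = 7.62e-06). NKX2-1 was at 24.2 to 26.8 CPM against 38.5 to 47.4 CPM (log2 fold change 0.76 ± 0.11, adjusted p = 0.000101). Its homeobox family had 12 of 79 higher and 9 lower (15.2% and 11.4%), near the 14.4% and 13.6% of all tested genes. The count of higher homeobox genes became 7 without monoculture replicate 3.

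Leucine zipper factors had 13 of 49 tested members higher and 9 lower, the latter count becoming 5 without monoculture replicate 3 or 4 and 4 without hepatic replicate 2. DBP, an activator driven by the circadian clock, was at 4.73, 6.0, 5.31 and 4.28 CPM in monoculture and at 21.3, 12.4, 13.3 and 13.1 CPM in the hepatic co-culture (log2 fold change 1.56 ± 0.18, adjusted p = 1.18e-05). Its relative TEF was at 8.83 to 11.3 CPM against 17.9 to 25.2 CPM (log2 fold change 1.09 ± 0.13, adjusted p = 1.21e-05). Helix-loop-helix factors had 13 of 52 higher and 8 lower, the former count becoming 8 without monoculture replicate 3 or 4 and 7 without hepatic replicate 3. ARNTL (BMAL1), the core activator of the clock, was at 18.5 to 22.5 CPM against 7.83 to 13.0 CPM (log2 fold change -0.87 ± 0.14, adjusted p = 0.000204), and NPAS2, which can pair with it, was higher by 0.58 ± 0.09. Nuclear receptors had 11 of 34 higher and 5 lower, the former count becoming 7 without monoculture replicate 1, 3 or 4. NR1D1 (REV-ERB alpha), a repressor of ARNTL, was at 11.5 to 13.0 CPM against 16.7 to 28.9 CPM (log2 fold change 0.87 ± 0.16, adjusted p = 0.00082).

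That these examples belong to the clock was noticed after their values were seen, and no list of clock genes was tested. Further clock genes, also chosen then, are given whether or not they were called. The repressor PER1 had a log2 fold change of -0.996 ± 0.083 (adjusted p = 3.02e-07) and its relative PER3 one of 1.05 ± 0.15 (adjusted p = 7.54e-05). NR1D2, the relative of NR1D1, was called higher with 0.24 ± 0.07 (adjusted p = 0.0193). PER2, CRY1, CRY2 and CLOCK were not called, with log2 fold changes of 0.30 ± 0.14, -0.11 ± 0.12, 0.04 ± 0.09 and -0.22 ± 0.08, nor were ARNTL2 and RORA, with 0.18 ± 0.12 and 0.94 ± 0.38. The called clock genes went in both directions, PER1 and PER3 included. Of 16 tested E2F, MYB and p53 family factors, which govern the cell cycle and its arrest, 2 were higher and 7 lower. That lower count was 3 without monoculture replicate 4 or hepatic replicate 3, and 4 without monoculture replicate 1, monoculture replicate 3 or hepatic replicate 1.

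**Figure D2:**
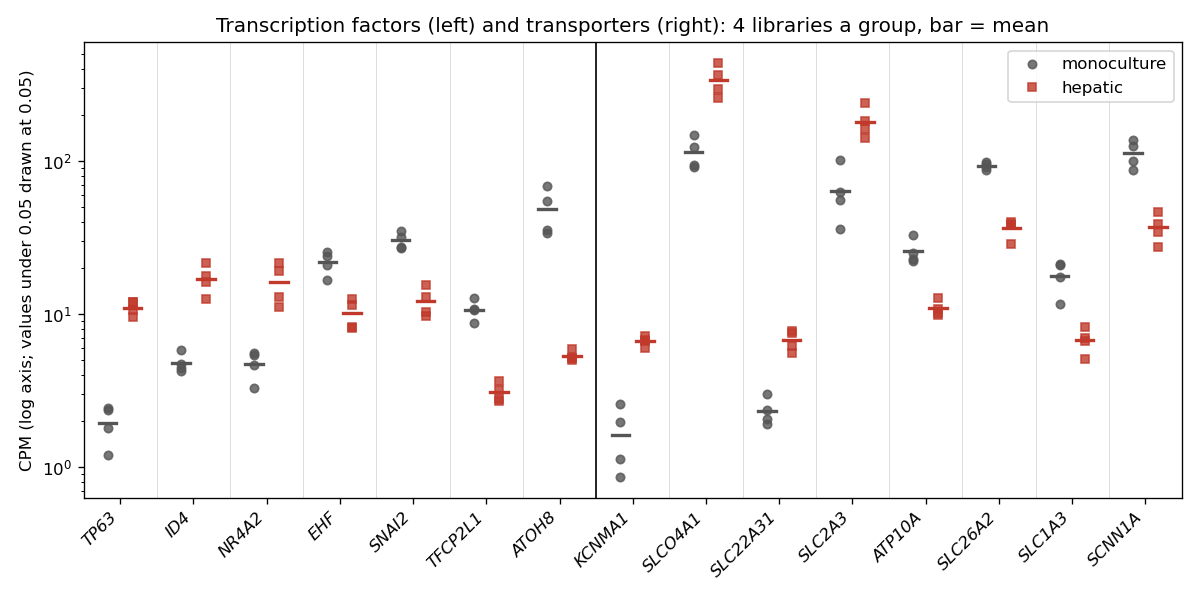
CPM on a log axis (y) of the named transcription factors (left of the line) and transporters and channels (right) in the 4 monoculture libraries (grey circles) and the 4 hepatic co-culture libraries (red squares), with bars at the group means. TP63 sits at 9.52 to 12.0 CPM in the hepatic co-culture against 1.20 to 2.44 CPM, and ATOH8 at 5.05 to 5.89 CPM against 33.7 to 68.7 CPM.

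Among transporters and channels, the sulfate carrier SLC26A2, the glutamate carrier SLC1A3 and subunits of the epithelial sodium channel fell, and the bicarbonate carrier SLC4A7, the glucose carriers SLC2A12 and SLC2A3 and the potassium channel KCNMA1 rose. SLC26A2 (chr5:149960737-149993455) was at 95.0, 98.2, 87.6 and 91.8 CPM in monoculture and at 39.8, 28.9, 38.5 and 38.2 CPM in the hepatic co-culture. Its monoculture libraries lay close together, while hepatic replicate 2 was below the other hepatic libraries. SLC26A2 fell by 1.36 ± 0.09 (adjusted p = 1.1e-08). SLC1A3 (chr5:36606355-36688334) was at 11.7, 17.5, 21.1 and 20.9 CPM against 5.08, 8.24, 6.99 and 6.70 CPM (log2 fold change -1.39 ± 0.17, adjusted p = 1.6e-05). Amino acid carriers as a family had 6 of 33 higher and 10 lower, and the higher count became 3 without monoculture replicate 1 or without monoculture replicate 4.

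The epithelial sodium channel, which takes up sodium across the apical membrane of epithelia, is built from alpha, beta and gamma subunits. The alpha subunit SCNN1A (chr12:6346843-6377730) was at 87.7, 100, 137 and 125 CPM in monoculture and at 38.6, 46.7, 27.6 and 34.5 CPM in the hepatic co-culture. SCNN1A fell by 1.60 ± 0.17 (adjusted p = 7.19e-05). Its exons overlap LTBR by 422 bases, so reads there could belong to either gene. The gamma subunit SCNN1G had 71, 72, 164 and 128 counts in monoculture and 0, 2, 1 and 0 counts in the hepatic co-culture (adjusted p = 9.07e-08). The beta subunit SCNN1B, chosen after its values were seen, had 13, 46, 92 and 71 counts against 0, 4, 0 and 8 counts (adjusted p = 0.000967). In the cardiac co-culture SCNN1G had 60 to 92 counts and SCNN1B 39 to 63, within or near the monoculture range. The delta subunit SCNN1D, also chosen after its values were seen, went the other way, with a log2 fold change of 0.62 ± 0.12 (adjusted p = 0.00113).

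SLC4A7 (chr3:27372721-27484420), a sodium bicarbonate carrier that raises intracellular pH, was at 84.5, 84.6, 81.6 and 79.3 CPM in monoculture and at 164, 182, 191 and 157 CPM in the hepatic co-culture. The monoculture libraries were nearly equal, and the log2 fold change was 1.07 ± 0.08 (adjusted p = 8.36e-08). Bicarbonate, anion and proton carriers as a family had 7 of 23 higher and 3 lower. Among glucose carriers, with 5 of 16 higher and 2 lower, SLC2A12 (GLUT12) was at 10.5, 12.5, 9.76 and 9.47 CPM against 28.1, 28.2, 29 and 26.7 CPM (log2 fold change 1.41 ± 0.11, adjusted p = 7.75e-08). SLC2A3 (GLUT3) was more variable, at 36.1 to 101 CPM against 142 to 238 CPM (log2 fold change 1.50 ± 0.38, adjusted p = 0.0172).

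KCNMA1, the pore of the large-conductance calcium-activated potassium channel (chr10:76869601-77638369), was at 1.97, 2.58, 1.13 and 0.86 CPM in monoculture and at 6.81, 6.0, 6.64 and 7.15 CPM in the hepatic co-culture (log2 fold change 2.02 ± 0.29, adjusted p = 7.44e-05). SLCO4A1, a carrier of organic anions such as thyroid hormone, was at 91.6 to 149 CPM against 258 to 436 CPM (log2 fold change 1.57 ± 0.24, adjusted p = 0.00125). Its exons overlap those of its antisense gene SLCO4A1-AS1 by 346 bases, and the strand setting of the counting is not given. SLC22A31, a little-studied member of the organic ion carriers, was at 1.92 to 3.01 CPM against 5.60 to 7.73 CPM (log2 fold change 1.53 ± 0.22, adjusted p = 7.35e-05). A pair of phospholipid flippases, which move lipids to the inner leaflet, went in opposite directions. ATP8A1 was at 14.6 to 18.4 CPM against 33.9 to 52.5 CPM (log2 fold change 1.49 ± 0.14, adjusted p = 1.61e-06), and ATP10A at 22.2 to 32.8 CPM against 9.92 to 12.8 CPM (log2 fold change -1.24 ± 0.15, adjusted p = 1.95e-05).

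Some carrier families had few higher members. Vacuolar ATPase subunits, which acidify lysosomes, had 5 of 24 lower and 0 higher in edgeR's test, with 1 higher at an unadjusted p under 0.05 and 1 in DESeq2. Carriers of zinc, iron and other metals had 6 of 27 lower and 1 higher. For these as for all families above, the share of all tested genes was 14.4% higher and 13.6% lower. The share called in either direction was 28.0% of all tested genes and 32.4% of protein-coding genes, from which the families were drawn.

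**Figure D3:**
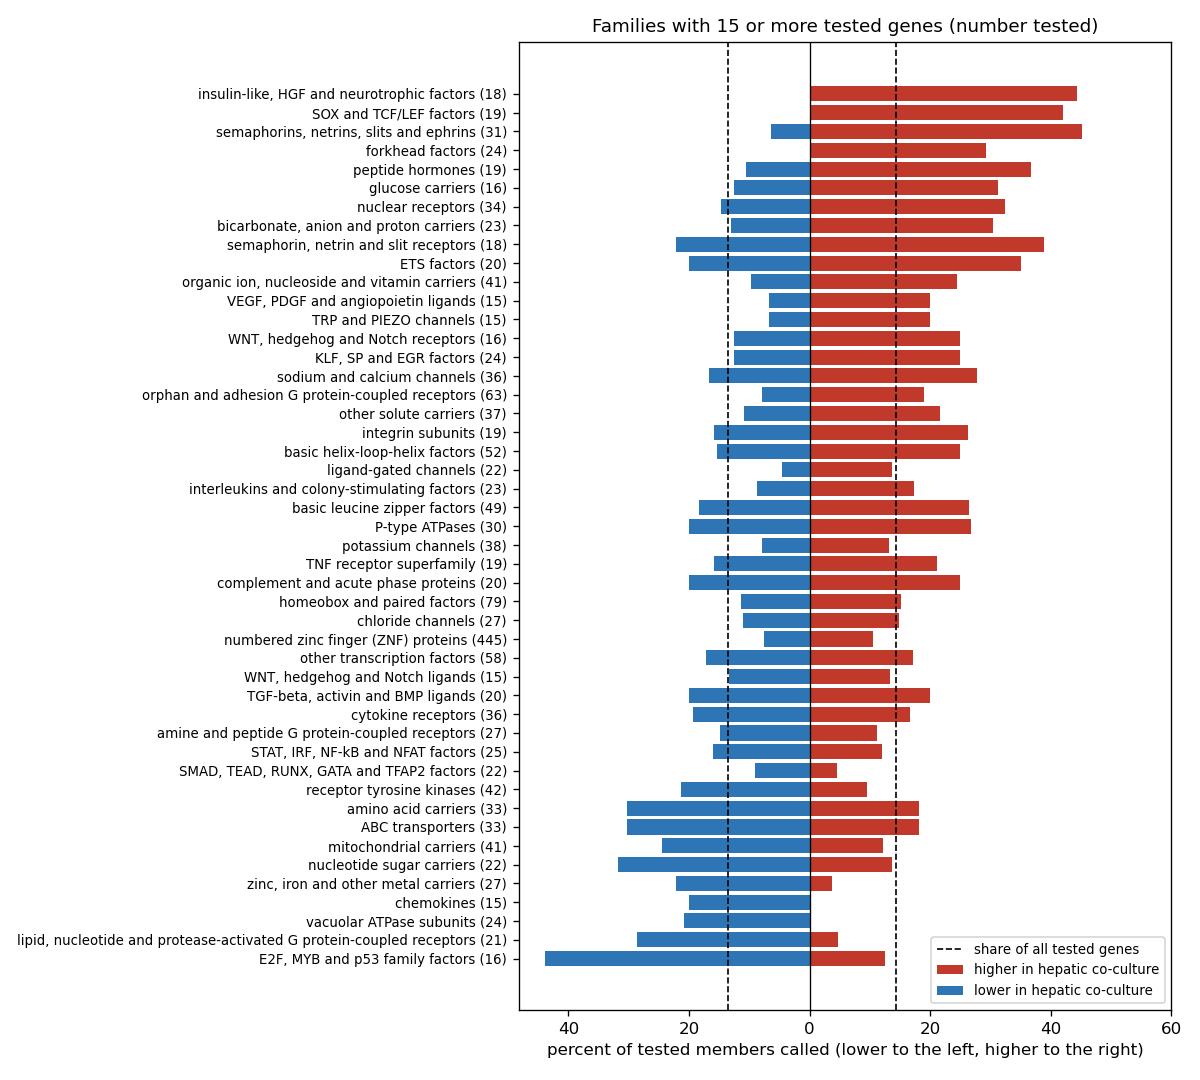
Percent of tested members (x) called higher (red, right) or lower (blue, left) in the hepatic co-culture for each family with 15 or more tested genes (y, number tested in brackets), with dashed lines at the 14.4% higher and 13.6% lower of all tested genes. Semaphorins, netrins, slits and ephrins have 14 of 31 members higher and 2 lower, and the E2F, MYB and p53 family has 2 of 16 higher and 7 lower. All members are protein-coding, and 32.4% of protein-coding genes were called in either direction, beside 28.0% of all tested genes.

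The bases before a transcription start listed in RefSeq (GRCh38.p14) were read for the named genes, where 21 of the 31 had an entry, 10 higher and 11 lower in the hepatic co-culture. These starts are not always the ends of the GENCODE gene spans given above: 9 windows lay wholly outside the span, 5 partly inside and 7 wholly inside it. In each 250-base window, using the first start listed for a gene, 4 motifs were searched on both strands: ACGTG, the core bound by hypoxia-inducible factors and by other helix-loop-helix factors; CACGTG, the E-box, which holds the former letters as well; TGANTCA, the AP-1 site; and GGAATG, the TEAD site. ACGTG was in 4 windows of the 11 lower genes and 0 of the 10 higher genes, beside 18.5% of all 35116 windows. CACGTG was in 2 windows of lower genes and 0 of higher genes (6.34% of all windows). GGAATG was in 2 windows of higher genes, GIPR and ID4, and 0 of lower genes (11.9%), and TGANTCA was in 0 of the 21 (6.57%). A match describes letters and does not show that a factor binds. The 4 lower genes whose windows hold ACGTG were SLC26A2, ANGPTL4, TLR2 and EHF. The TLR2 window lay mostly in annotated exons, with 210 of its 250 bases, and is not printed. The others are printed because they are where these matches lie, all on the plus strand, with the matching letters of either strand in capitals. They are chr5:149960508-149960757 (SLC26A2, 21 bases inside the GENCODE span), chr19:8363905-8364154 (ANGPTL4) and chr11:34624007-34624256 (EHF), the last 2 wholly inside it, at RefSeq starts 866 and 3164 bases downstream of the GENCODE start.
SLC26A2: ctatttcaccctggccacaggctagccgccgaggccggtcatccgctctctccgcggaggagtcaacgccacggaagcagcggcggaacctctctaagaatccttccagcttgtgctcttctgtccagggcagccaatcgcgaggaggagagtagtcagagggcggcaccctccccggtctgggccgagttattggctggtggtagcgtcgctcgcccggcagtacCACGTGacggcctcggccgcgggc
ANGPTL4: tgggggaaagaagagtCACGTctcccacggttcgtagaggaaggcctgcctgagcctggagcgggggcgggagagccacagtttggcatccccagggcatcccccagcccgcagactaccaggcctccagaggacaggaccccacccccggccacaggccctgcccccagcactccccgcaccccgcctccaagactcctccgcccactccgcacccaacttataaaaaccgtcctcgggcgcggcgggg
EHF: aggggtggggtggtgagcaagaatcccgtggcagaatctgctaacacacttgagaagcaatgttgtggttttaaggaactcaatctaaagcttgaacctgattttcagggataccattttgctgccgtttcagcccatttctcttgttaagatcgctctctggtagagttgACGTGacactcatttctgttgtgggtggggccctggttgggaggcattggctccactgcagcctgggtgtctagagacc

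The cardiac co-culture shows how far these levels were shared by another partner tissue. The first principal component of all 12 libraries held 28.5% of the variance and placed cardiac replicate 4 at -24.9, within the monoculture range of -51.1 to -22.3, while the other cardiac libraries lay at 6.79 to 16.3. Between the hepatic and cardiac co-cultures 1080 of 17468 genes (6.18%) were called, 849 without cardiac replicate 4 and 676 without hepatic replicate 3. Of the 31 named genes, 23 were called, and the remaining 8 were all among the 15 that were higher than in monoculture. The named genes were chosen on a contrast with the same hepatic libraries, so nothing is read from this share. ANGPTL4 was at 199, 204, 163 and 156 CPM in the cardiac libraries, near or above the monoculture, and its hepatic minus cardiac log2 fold change was -2.39 ± 0.18 (adjusted p = 1.39e-05). HP, at 24.3 to 38.6 CPM in cardiac libraries, and IL7R, at 5.37 to 7.37 CPM, lay within the monoculture range there, with hepatic minus cardiac log2 fold changes of -2.23 ± 0.36 (adjusted p = 0.00595) and -1.94 ± 0.23 (adjusted p = 2.36e-05).

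Other genes lay between the groups. TP63 was at 3.85, 4.68, 4.12 and 2.84 CPM in the cardiac co-culture, above every monoculture library and below every hepatic one, with a hepatic minus cardiac log2 fold change of 1.51 ± 0.20 (adjusted p = 9.56e-05). ATOH8 was at 20.6 to 32.8 CPM, also between the groups (-2.18 ± 0.25, adjusted p = 0.000293). SLC4A7 was at 73.5 to 95.9 CPM in cardiac libraries, around the monoculture level, and its hepatic minus cardiac log2 fold change was 1.02 ± 0.08 (adjusted p = 1.7e-07). By contrast, CHRD at 5.08 to 25.8 CPM, SCG2 at 8.53 to 41.0 CPM and SLC2A3 at 82.4 to 233 CPM overlapped the hepatic range. Their hepatic minus cardiac differences of 0.36 ± 0.50, 0.34 ± 0.49 and 0.10 ± 0.37 were not called. A difference that misses the threshold does not show equal levels, and in each of these genes cardiac replicate 4 was the lowest cardiac library.

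**Figure D4:**
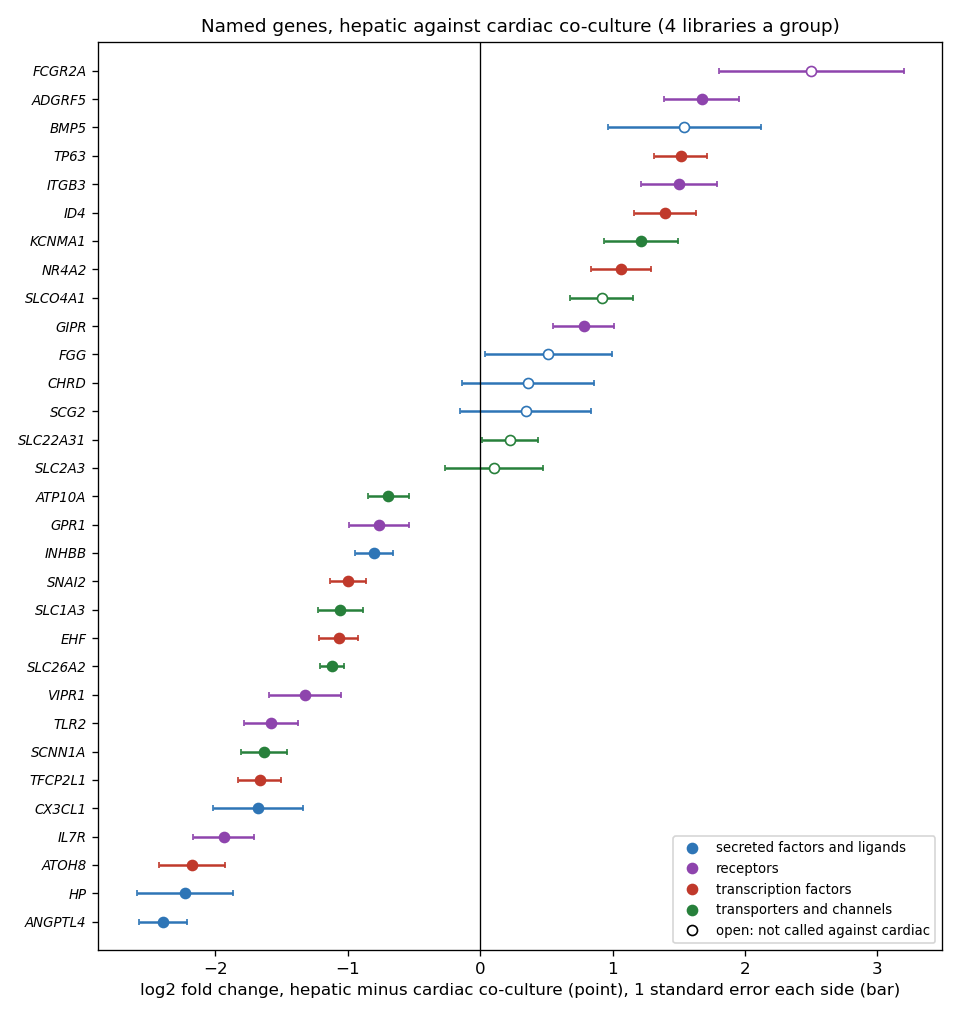
Log2 fold change between the hepatic and the cardiac co-culture (x, points, with 1 standard error on each side) for the 31 named genes (y), coloured by class, filled where the adjusted p was under 0.05. The 16 genes lower than in monoculture are all filled, from -2.39 to -0.69, and 8 of the 15 higher genes are open.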

How the data were processed

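RNA-seq of cancer tissue was analysed from 1 deposited table of gene counts for 58735 genes in 12 libraries, with 4 libraries in each of 3 groups assigned from the labels. Per the submitters' processing notes, the authors used HISAT2 2.2.1, featureCounts 2.0.6, DESeq2 1.42.0 and the GRCh38 build. For the role of each tool, the annotation release and any filter, nothing is given in the sources used here, and the labels' protocols describe both an unstranded and a stranded kit. The deposited values are raw counts per gene. Counting cannot place reads shared by near-identical or overlapping genes.

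Symbols and coordinates were matched by identifier to GENCODE release 29 for all 58735 genes. Genes passed edgeR's filterByExpr (17468 genes with 99.93% of counts). The counts were scaled by TMM and fitted with edgeR 4.0.16 (R 4.3.3) by the robust quasi-likelihood method with the group as the only term over all 12 libraries, so the groups share 1 estimate of spread (biological coefficient of variation 14.9%). The contrasts were hepatic co-culture minus monoculture and hepatic minus cardiac co-culture, 2-sided, with Benjamini-Hochberg adjustment over all tested genes and a threshold of 0.05. CPM are TMM-scaled and not divided by gene length, so levels were not compared between genes. Standard errors are the log2 fold change divided by the square root of the F statistic.

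The 4 classes and their families were lists of symbols. The members and lists were chosen with earlier results of these data known. Named genes were, in each class and leaving out numbered zinc finger genes, those with the 4 largest increases and 4 largest decreases (log2 fold change) among called genes whose 4 libraries did not overlap between groups and whose higher group averaged at least 5 CPM. Of these, 1 transcription factor is not reported here. Further examples were taken from the families by smallest adjusted p, at most 2 a direction, or from the list of pairs. Intervals reflect counting and library spread as the model estimates them. Alternatives were DESeq2 1.42.0, other scalings, no low-count filter, a minimum-size test, a replicate block, fits of only the groups compared, and each library left out.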

Additional observations from a re-analysis of the deposited data

Results flagged for a closer look

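In 4 of 66 groups of 4 libraries examined, 1 library stood apart from the other 3 by Dixon's criterion at the 95% level, which chance gives in about 1 group in 20. In the hepatic co-culture, SLC26A2 was at 28.87 CPM in replicate 2 beside 38.18 to 39.84 CPM in the others. CX3CL1 was at 1.85 CPM in replicate 3 beside 1.04 to 1.15 CPM. ITGB3 was at 42.16 CPM in replicate 4 beside 72.45 to 76.34 CPM. ATOH8 was at 5.891 CPM in replicate 3 beside 5.05 to 5.17 CPM. Each of these genes kept its call when the library that stood apart was left out.

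The named genes were chosen on a contrast with the same hepatic libraries, so nothing is read from their share called against the cardiac co-culture, which was 6.18% over all tested genes. The difference between the hepatic and the cardiac co-culture was tested directly, and 23 of the 31 named genes passed an adjusted p of 0.05 in edgeR's quasi-likelihood test: 7 of 7 transcription factors, and of 8 named in each other class, 7 receptors, 5 transporters and channels, and 4 secreted factors.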

How the results depend on the processing

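The call of each of the 31 named genes against monoculture held under DESeq2, upper-quartile and DESeq2 scaling, no low-count filter, the replicate block, a fit of only the 2 groups, and each of the 12 libraries left out. None changed direction. With a minimum log2 fold change of 1 as the null, 10 of 31 kept their call, and 72 genes were called in all, 31 higher and 41 lower, with 38 against the cardiac co-culture. By class these were 2 higher and 4 lower among transporters and channels, among secreted factors and among receptors, and 1 higher and 2 lower among transcription factors, and 4 named genes were called against the cardiac co-culture.

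Leaving out 1 library gave 3660 to 5529 genes called against monoculture (1883 to 2755 higher, 1748 to 2774 lower) and 676 to 1269 against the cardiac co-culture, the lowest without hepatic replicate 3. The 5529 came without cardiac replicate 4, a library that is in the shared fit but in neither group of that contrast. Against the cardiac co-culture, VIPR1 lost its call without hepatic replicate 3 (adjusted p = 0.0531), and GIPR and GPR1, at adjusted p = 0.0498 and 0.0496, lost theirs under most alternatives. BMP5, FCGR2A and SLCO4A1 gained a call under some.

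With the replicate block, 4660 genes were called. Same-numbered monoculture and hepatic libraries did not deviate together (correlations of -0.051 to -0.01). Same-numbered libraries had correlations of -0.082 to 0.113 where 1 of them was cardiac. Values this near 0 show no common deviation, but they cannot tell whether equal numbers mark shared handling. Scaling moved the median log2 fold change of all genes to at most 0.05. The depth of 26.2 to 42.4 M counts leaves genes near 0 counts, such as SCNN1G in the hepatic co-culture, without a usable fold change.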
